A study of Mus musculus with 9 samples.

Results

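The mouse microRNAs mmu-miR-191-5p, mmu-miR-423-5p, mmu-miR-423-3p, mmu-miR-186-5p and mmu-miR-484, which circulating-microRNA assays often use as internal references, were followed through small extracellular vesicles of mouse serum. They were taken by name from the table of known microRNAs, by a rule that uses their names and no measured value, and all 5 were found among 1064 known microRNAs listed. The prefix mmu- is left out below. All 5 passed the filter on low counts that left 414 microRNAs for testing. Small RNA was sequenced in 9 libraries of 3 groups, 3 libraries each. HFD Sirt3 AKI mice carry adipose-specific Sirt3 overexpression and ate a high fat diet. HFD WT mice are labelled wild type and ate the same diet. The chow WT mice are wild type on chow. The series title gives the animals as male, and no source used here gives their age, their strain or the promoter of the transgene. The library names of HFD WT hold a Sirt3 knock-in code (SIRT3CKI) that those of chow WT lack, so a second difference between these groups besides diet cannot be told apart from the diet. HFD Sirt3 AKI replicates 2 and 3 carry a different batch label from the other 7 libraries. Nothing in the labels says that the 3 libraries of a group came from separate animals, so p-values measure the spread between these libraries, which may be technical.

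A reference microRNA is measured beside a target microRNA, and the target is reported relative to it. This removes differences in serum volume, RNA recovery and reverse transcription, on the condition that the reference itself is at a like level in the groups compared. Serum has no accepted housekeeping small RNA, and its microRNAs come from red cells, platelets, white cells, liver, endothelium and other tissues. A reference whose share of the serum pool moves with diet therefore shifts every target scaled by it. In sequencing no single reference is needed, because a level can be set against the library total or against a factor estimated from most microRNAs at once.

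The 5 mature sequences are shown because they define what was counted and because they come from only 4 precursors. They are from RefSeq on GRCm38.p6, are printed 5′ to 3′, and have the seed (bases 2 to 8) in capitals, which is the stretch that pairs with target messenger RNAs.
miR-191-5p: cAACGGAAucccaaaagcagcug
miR-423-5p: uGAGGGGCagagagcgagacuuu
miR-423-3p: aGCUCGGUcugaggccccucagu
miR-186-5p: cAAAGAAUucuccuuuugggcu
miR-484: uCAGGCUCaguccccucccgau

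The 5 seeds differ from each other, so the set does not form a family. The seed of miR-423-5p is shared with 1 other mature microRNA in that table, miR-6921-5p, which was not among those tested, and the other 4 seeds with none. miR-191-5p lies at chr9:108568325-108568347 on the plus strand, in an exon of the long non-coding RNA 4833445I07Rik, with 384 bases between its hairpin and that of miR-425. miR-423-5p (chr11:77078122-77078144) and miR-423-3p (chr11:77078086-77078108) are the arms of a single hairpin on the minus strand, in an intron of Nsrp1, which encodes a splicing regulator and runs in the same direction. miR-186-5p lies at chr3:157544285-157544306 on the plus strand, in an intron of Zranb2, which encodes a splicing factor and runs in the same direction. miR-484 lies at chr16:14159630-14159651 on the plus strand, outside any exon, within Marf1, which runs on the opposite strand. GC content differed within the set. It was 65.2% in miR-423-3p, 63.6% in miR-484, 56.5% in miR-423-5p, 52.2% in miR-191-5p and 40.9% in miR-186-5p, against a median of 47.8% over the 347 tested known microRNAs that had a sequence. Of those 347, 18 had a higher GC content than miR-423-3p, 24 than miR-484, and 248 than miR-186-5p.

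Depth differed by group and limits the chow WT values. HFD Sirt3 AKI libraries held 1729416 to 2973432 counts and HFD WT libraries 1953935 to 2162009, against 225002 to 306974 in chow WT. The thinnest value of the set was miR-423-3p in chow WT replicate 3, with 134 counts, or 0.0596% of that library with an exact (Clopper-Pearson) 95% interval of 0.0499 to 0.0705%. Such an interval holds counting error alone, because PCR copies without molecular tags are not separate molecules. The chow WT level of miR-191-5p rests on 24619 counts in its 3 libraries. The spread between libraries of a group was above the sampling noise for every pair of libraries. The summed share of the listed red-cell microRNAs was higher in both high fat diet groups than in chow WT. The listed red-cell markers together held 46.6 to 55.4% of counts in HFD Sirt3 AKI and 54.1 to 56.2% in HFD WT, against 38.6 to 41.0% in chow WT, and their part in any result here was not tested. This sum and the library total hold both miR-486a-5p and miR-486b-5p, which had the same mean level and SDs. The same reads may thus be counted for both. The log2 ratio of miR-451a to miR-23a-3p, a measure of red-cell leakage, did not keep this order. It was 2.17 to 2.82 in HFD Sirt3 AKI and 2.95 to 3.39 in HFD WT, against 2.79 to 3.16 in chow WT. The listed hepatocyte markers held 0.868 to 3.48% in HFD Sirt3 AKI and 0.577 to 0.650% in HFD WT, against 1.48 to 1.82% in chow WT. The platelet and myeloid markers held 3.10 to 3.67% in HFD Sirt3 AKI and 3.62 to 3.89% in HFD WT, against 3.22 to 3.83% in chow WT. The lymphocyte markers held 1.15 to 1.25% in HFD Sirt3 AKI and 0.732 to 0.925% in HFD WT, against 0.664 to 0.675% in chow WT. All 8 red-cell markers and all 3 markers of each other list had counts in every library. Each sum follows its most abundant members, and members of a list need not move together. On the red-cell list, miR-144-5p ran like miR-186-5p over the 9 libraries (Pearson's r of log2 TMM-scaled levels, 0.96). The level of miR-186-5p was highest in chow WT, unlike the red-cell sum. No microRNA defines serum vesicles as such, so the labelled source could not be checked this way. A larger share of some microRNAs lowers the share of all others in the library total, so fewer molecules of a reference and more molecules of other microRNAs cannot be told apart in these data.

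Together the 5 took 3.11 ± 0.203% of counts in HFD Sirt3 AKI and 2.98 ± 0.218% in HFD WT, against 3.66 ± 0.0848% in chow WT (SD, n = 3 each). miR-191-5p made up most of this sum in each group, with 82.6% in HFD Sirt3 AKI and 79.6% in HFD WT, against 81.8% in chow WT. A mature microRNA is read whole, so levels need no correction for length, but ligation can favour some sequences, and the order below is an order of read levels. Levels are given as counts per 1000000 (CPM) of the library total, or of that total after scaling by TMM, the trimmed mean of M values, a factor that sets most microRNAs level between libraries. By TMM-scaled CPM, miR-191-5p ranked 9 among known microRNAs in HFD Sirt3 AKI and 10 in HFD WT, against 8 in chow WT. The other 4 ranked between 41 and 103. The order of the set differed between groups. HFD Sirt3 AKI had the order miR-191-5p, miR-423-5p, miR-484, miR-186-5p and miR-423-3p. The ranges of the last 3 overlapped across libraries, but within each of the 3 libraries the order held. HFD WT had miR-191-5p, miR-423-5p, miR-186-5p, miR-484 and miR-423-3p. There the ranges of miR-186-5p and miR-484 overlapped, and miR-186-5p stood above miR-484 in 2 of the 3 libraries. In chow WT miR-186-5p stood next after miR-191-5p and ahead of miR-423-5p, and no neighbours overlapped.

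Counted by edgeR's quasi-likelihood test at a Benjamini-Hochberg adjusted p below 0.05, the set was not level between groups. In HFD WT over chow WT, 4 of the 5 were called higher and 0 lower on the TMM scale, where 37.7% of all 414 were called, 21.5% higher and 16.2% lower. miR-186-5p was the exception. Between HFD Sirt3 AKI and HFD WT, 2 of the 5 were called lower in HFD Sirt3 AKI (miR-423-5p and miR-186-5p) and 0 higher, where 8.94% of all were called, 1.45% higher and 7.49% lower. Between HFD Sirt3 AKI and chow WT, 3 were called higher in HFD Sirt3 AKI and 1 lower, where 39.9% of all were called, 20.3% higher and 19.6% lower. A test of any difference among the 3 groups called all 5, where 46.1% of all were called. That count was 4 without any single library of chow WT or HFD WT (33.9 to 37.4% of all called). These comparisons share libraries, so their counts are not independent. Counts of members whose libraries did not overlap were close to these. All 3 HFD WT libraries stood above all 3 chow WT libraries in 4 members and below them in 1, as in 30.9% and 23.9% of all 414. HFD Sirt3 AKI stood above HFD WT in 0 members and below it in 2 (8.7% and 17.4% of all), and above chow WT in 3 and below it in 1 (22.9% and 26.3% of all).

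With the library total as the scale, 1 member was called higher and 2 lower in HFD WT over chow WT, where 39.4% of all were called, 4.83% higher and 34.5% lower. For HFD Sirt3 AKI over HFD WT, 0 were called higher and 1 lower, where 11.4% of all were called, 8.7% higher and 2.66% lower. In the comparison of HFD Sirt3 AKI with chow WT, 1 was called higher and 1 lower, where 41.1% of all were called, 9.66% higher and 31.4% lower. The test of any difference then called 4, without miR-484 (47.8% of all called).

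The 2 scales set the zero line differently. In HFD WT over chow WT the median log2 fold change of all 414 was 0.15 with TMM and -0.57 with library totals, in HFD Sirt3 AKI over HFD WT it was -0.02 and 0.27, and in HFD Sirt3 AKI over chow WT 0.06 and -0.35. A change of scale moves all log2 fold changes of a comparison by nearly the same amount. A member's side of that median is therefore nearly fixed between the scales, and its being the same under both is no second result. In HFD WT over chow WT, miR-191-5p, miR-423-5p, miR-423-3p and miR-484 lay above the median of all and miR-186-5p below it, and the same held in HFD Sirt3 AKI over chow WT. Between HFD Sirt3 AKI and HFD WT only miR-423-3p lay above the median and the other 4 below it.

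**Figure D1:**
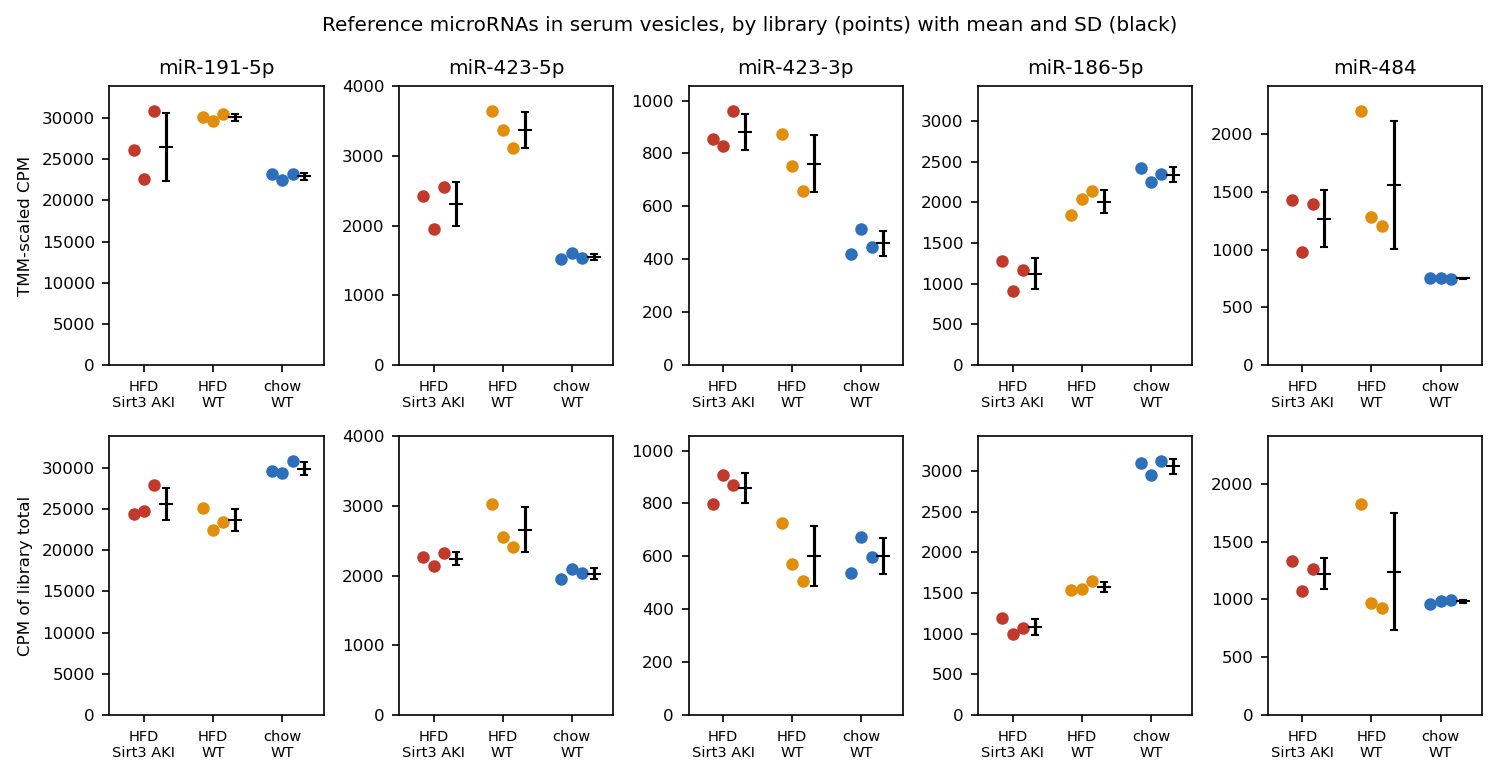
Level of each reference microRNA in every library, as TMM-scaled CPM (upper row) and as CPM of the library total (lower row), on linear axes from 0, with HFD Sirt3 AKI in red, HFD WT in orange and chow WT in blue. Points are libraries, and the black bars give mean ± SD (n = 3). miR-191-5p changes the order of HFD WT and chow WT between the rows, while miR-186-5p is highest in chow WT in both.

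miR-191-5p is abundant in blood cells and, in mouse erythroblasts, is known to act on Riok3 and Mxi1 before the nucleus is lost. It had 26133, 22603 and 30798 TMM-scaled CPM in HFD Sirt3 AKI and 30158, 29628 and 30455 in HFD WT, against 23162, 22428 and 23153 in chow WT. All HFD WT libraries stood above all chow WT libraries, and the HFD Sirt3 AKI libraries spanned both groups. HFD WT was 1.31-fold higher than chow WT (log2 0.39, SE 0.12, 95% CI 0.14 to 0.65, edgeR adjusted p = 0.0214). The other comparisons gave -0.18 in HFD Sirt3 AKI over HFD WT (95% CI -0.44 to 0.07, adjusted p = 0.342) and 0.21 in HFD Sirt3 AKI over chow WT (95% CI -0.05 to 0.47, adjusted p = 0.175). On the library total the order turned round. The levels were then 24402, 24720.5 and 27901 CPM in HFD Sirt3 AKI and 25090.1, 22433 and 23494 in HFD WT, against 29602, 29333 and 30809 in chow WT. All libraries on the high fat diet were now below all of chow WT, as were 37.4% of all microRNAs in HFD Sirt3 AKI and 46.4% in HFD WT, and HFD WT was called lower (log2 -0.34, 95% CI -0.53 to -0.15, adjusted p = 0.00961). HFD Sirt3 AKI over chow WT gave -0.22 on this scale (adjusted p = 0.0641), so for miR-191-5p the sign of each comparison follows the scale. The TMM call in HFD WT over chow WT was also lost without any single library of these groups, with adjusted p of 0.0566 to 0.0788 and log2 values of 0.39 to 0.42.

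The neighbour miR-425-5p, which has itself been used as a serum reference, was also higher in HFD WT than in chow WT on the TMM scale. It had 7642, 6339 and 8296 TMM-scaled CPM in HFD Sirt3 AKI and 7836, 7023 and 6805 in HFD WT, against 5490.3, 4903 and 4833 in chow WT. Both high fat diet groups stood above chow WT, with log2 0.51 in HFD WT over chow WT (adjusted p = 0.00864) and 0.55 in HFD Sirt3 AKI over chow WT (adjusted p = 0.00505). HFD Sirt3 AKI over HFD WT gave 0.04 (95% CI -0.24 to 0.32, adjusted p = 0.855). None of the 3 comparisons of miR-425-5p was called on the library total. The passenger arm miR-191-3p was rare, with 31 to 70 counts in HFD Sirt3 AKI and 31 to 43 in HFD WT, against 2 to 5 in chow WT.

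Both arms of miR-423 are counted in serum, and miR-423-5p is best known as a plasma microRNA that is raised in human heart failure. miR-423-5p had 2425, 1958 and 2558 TMM-scaled CPM in HFD Sirt3 AKI and 3638, 3365 and 3115 in HFD WT, against 1524, 1601 and 1533 in chow WT. The 3 groups did not overlap, with HFD WT highest and chow WT lowest. HFD WT was 2.17-fold higher than chow WT (log2 1.12, SE 0.13, adjusted p = 5.22e-05), which was the highest log2 fold change of the set in that comparison. HFD Sirt3 AKI was lower than HFD WT (log2 -0.54, SE 0.13, adjusted p = 0.0223) and higher than chow WT (log2 0.58, adjusted p = 0.00425). Scaled to the library total, the rise in HFD WT over chow WT kept its call at log2 0.39 (adjusted p = 0.0176), while HFD Sirt3 AKI over HFD WT gave -0.25 (adjusted p = 0.163) and HFD Sirt3 AKI over chow WT 0.14 (adjusted p = 0.331). The lower level in HFD Sirt3 AKI than in HFD WT also lost its call on the TMM scale in a fit with a batch term (log2 -0.48, adjusted p = 0.315), within the larger batch (log2 -0.34, adjusted p = 0.224, with 1 HFD Sirt3 AKI library that is assumed to vary like the other groups), and without any single HFD WT or chow WT library.

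The other arm, miR-423-3p, had 853, 829.5 and 959 TMM-scaled CPM in HFD Sirt3 AKI and 873, 753 and 657 in HFD WT, against 421, 514 and 448 in chow WT. Both high fat diet groups stood above chow WT and overlapped with each other. The log2 fold change was 0.72 in HFD WT over chow WT (SE 0.15, adjusted p = 0.00281) and 0.93 in HFD Sirt3 AKI over chow WT (SE 0.15, adjusted p = 0.000516). HFD Sirt3 AKI over HFD WT gave 0.21 (95% CI -0.11 to 0.53, adjusted p = 0.368). On the library total the difference of HFD WT from chow WT was -7.4e-04 on the log2 scale (95% CI -0.36 to 0.35, adjusted p = 0.997), while HFD Sirt3 AKI stayed above chow WT (log2 0.51, adjusted p = 0.0255).

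The arms of miR-423 thus did not keep one ratio, and a ratio of counts within a library needs no scaling. miR-423-5p had 2.84, 2.36 and 2.67 times the counts of miR-423-3p in HFD Sirt3 AKI and 4.17, 4.47 and 4.74 times in HFD WT, against 3.62, 3.12 and 3.43 times in chow WT. The 3 groups did not overlap, and HFD WT was highest. The log2 ratio differed by -0.77 (SE 0.10) in HFD Sirt3 AKI over HFD WT and by 0.40 (SE 0.08) in HFD WT over chow WT. Each gave p = 0.1 in a two-sided exact permutation test, the smallest value that 3 libraries against 3 allow, and 0.136 after adjustment over the 30 ratio comparisons. Within the larger batch, where HFD Sirt3 AKI has 1 library, the first difference was -0.65. As a share of both arms, miR-423-3p held 26.0 to 29.8% in HFD Sirt3 AKI and 17.4 to 19.4% in HFD WT, against 21.6 to 24.3% in chow WT.

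miR-186-5p was the member whose TMM-scaled level was highest in chow WT. It had 1278, 909.9 and 1175 TMM-scaled CPM in HFD Sirt3 AKI and 1851, 2041 and 2135 in HFD WT, against 2429, 2253 and 2345 in chow WT. The groups did not overlap, with HFD Sirt3 AKI lowest and chow WT highest. HFD Sirt3 AKI was 0.558 times HFD WT (log2 -0.84, SE 0.14, adjusted p = 0.00473) and 0.479 times chow WT (log2 -1.06, SE 0.14, adjusted p = 0.000139). HFD WT over chow WT gave -0.22 (95% CI -0.53 to 0.09, adjusted p = 0.249), so the test did not separate these although every HFD WT library was below every chow WT library, as was true of 23.9% of all 414. As CPM of the library total the same microRNA had 1194, 995 and 1065 CPM in HFD Sirt3 AKI and 1539.8, 1546 and 1647 in HFD WT, against 3104, 2947 and 3120.0 in chow WT. All 3 comparisons were then called, at log2 -0.95 in HFD WT over chow WT (adjusted p = 6.19e-05), -0.54 in HFD Sirt3 AKI over HFD WT (adjusted p = 0.0120) and -1.49 in HFD Sirt3 AKI over chow WT (adjusted p = 4.22e-06). The direction of all 3 was the same under both scales. On the TMM scale the difference between HFD Sirt3 AKI and HFD WT lost its call with a batch term (log2 -0.65, adjusted p = 0.188) and when only these groups were fitted (log2 -0.71, adjusted p = 0.0557), and had an adjusted p of 0.0479 within the larger batch (log2 -0.51). That value rests on 1 HFD Sirt3 AKI library, which is assumed to vary like the other groups. The passenger arm miR-186-3p was rare, with 16 to 42 counts in HFD Sirt3 AKI and 22 to 33 in HFD WT, against 4 to 8 in chow WT, and none of its comparisons was called.

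miR-484 is known in mouse cardiomyocytes as a repressor of Fis1, a factor of mitochondrial fission. It had 1425, 979.7 and 1396 TMM-scaled CPM in HFD Sirt3 AKI and 2195, 1283 and 1200.1 in HFD WT, against 754, 756 and 748 in chow WT. The chow WT libraries lay close together below all others, while HFD WT replicate 1 stood far above replicates 2 and 3 of its group. HFD WT was 2.07-fold higher than chow WT (log2 1.05, SE 0.23, 95% CI 0.54 to 1.56, adjusted p = 0.00473), and HFD Sirt3 AKI was 1.68-fold higher than chow WT (log2 0.75, SE 0.23, adjusted p = 0.0241). HFD Sirt3 AKI over HFD WT gave -0.30 (95% CI -0.80 to 0.20, adjusted p = 0.421), and 0.026 without HFD WT replicate 1. On the library total none of the 3 comparisons was called, with 0.34 in HFD WT over chow WT (95% CI -0.20 to 0.87, adjusted p = 0.311). The call in HFD Sirt3 AKI over chow WT was lost on the TMM scale without any single chow WT library or without HFD Sirt3 AKI replicate 3.

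**Figure D2:**
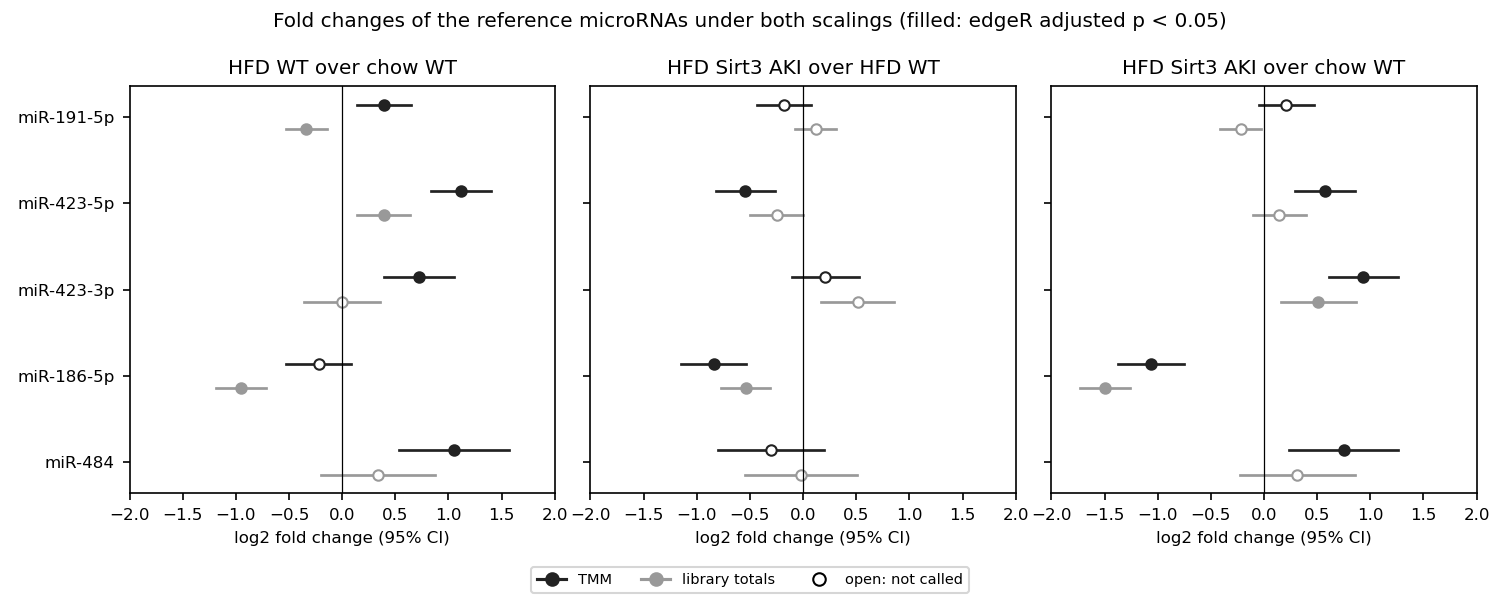
Log2 fold change of each reference microRNA in the 3 comparisons, with its 95% confidence interval, under TMM (black) and library totals (grey). Filled points have an edgeR adjusted p below 0.05 and open points do not. miR-191-5p lies at 0.39 in HFD WT over chow WT with TMM and at -0.34 with library totals, while miR-186-5p lies left of 0 in each comparison.

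Spread inside the groups separated the members in another way. On the TMM scale the SD of the log2 level of miR-191-5p was 0.22 in HFD Sirt3 AKI and 0.02 in HFD WT, against 0.03 in chow WT. miR-484 had 0.30 in HFD Sirt3 AKI and 0.48 in HFD WT, against 0.01 in chow WT, where counting alone would give about 0.09. miR-186-5p had 0.26 in HFD Sirt3 AKI and 0.10 in HFD WT, against 0.05 in chow WT. With library totals these SDs were 0.11 in HFD Sirt3 AKI and 0.08 in HFD WT, against 0.04 in chow WT, for miR-191-5p. For miR-484 they were 0.16 in HFD Sirt3 AKI and 0.55 in HFD WT, against 0.02 in chow WT, and for miR-186-5p 0.13 in HFD Sirt3 AKI and 0.05 in HFD WT, against 0.05 in chow WT. The spread of these 3 members in HFD Sirt3 AKI, the group that holds both batches, was thus smaller on the library total than with TMM. Pooled within groups with TMM, miR-191-5p (0.130) and miR-423-5p (0.136) had nearly the same SD, the lowest of the set, and miR-191-5p ranked 36 among the 166 microRNAs that averaged at least 100 CPM and had reads in every library. miR-484 had the highest (0.33, rank 137 of 166). With library totals, miR-191-5p (0.080, rank 8 of 168) and miR-186-5p (0.087, rank 13) had the lowest pooled SDs of the set. miR-423-5p came next (0.110, rank 27), and miR-484 again had the highest (0.33, rank 132).

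Over all 9 libraries, where shifts between groups count as well, miR-191-5p was the steadiest of the set under both scales. Its SD of the log2 level was 0.20 with TMM, rank 13 of 166, and 0.16 with library totals, rank 7 of 168. The other 4 depended on the scale. With TMM their SDs were 0.50 in miR-423-5p, 0.45 in miR-423-3p, 0.51 in miR-186-5p and 0.53 in miR-484, near or above the median of 0.45, at ranks 80 to 104. With library totals the SD was 0.19 in miR-423-5p (rank 14), 0.31 in miR-423-3p (rank 40) and 0.32 in miR-484 (rank 46), while miR-186-5p stood at 0.66 (rank 126). The geNorm stability value, the mean SD of a microRNA's log2 ratios to the other members, needs no scale and is lower for a steadier microRNA. It was 0.41 for miR-191-5p, 0.42 for miR-423-5p, 0.44 for miR-484, 0.47 for miR-423-3p and 0.77 for miR-186-5p over all libraries. Within groups the order was another, with 0.146 for miR-423-5p, 0.171 for miR-191-5p, 0.195 for miR-423-3p, 0.216 for miR-186-5p and 0.276 for miR-484.

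**Figure D3:**
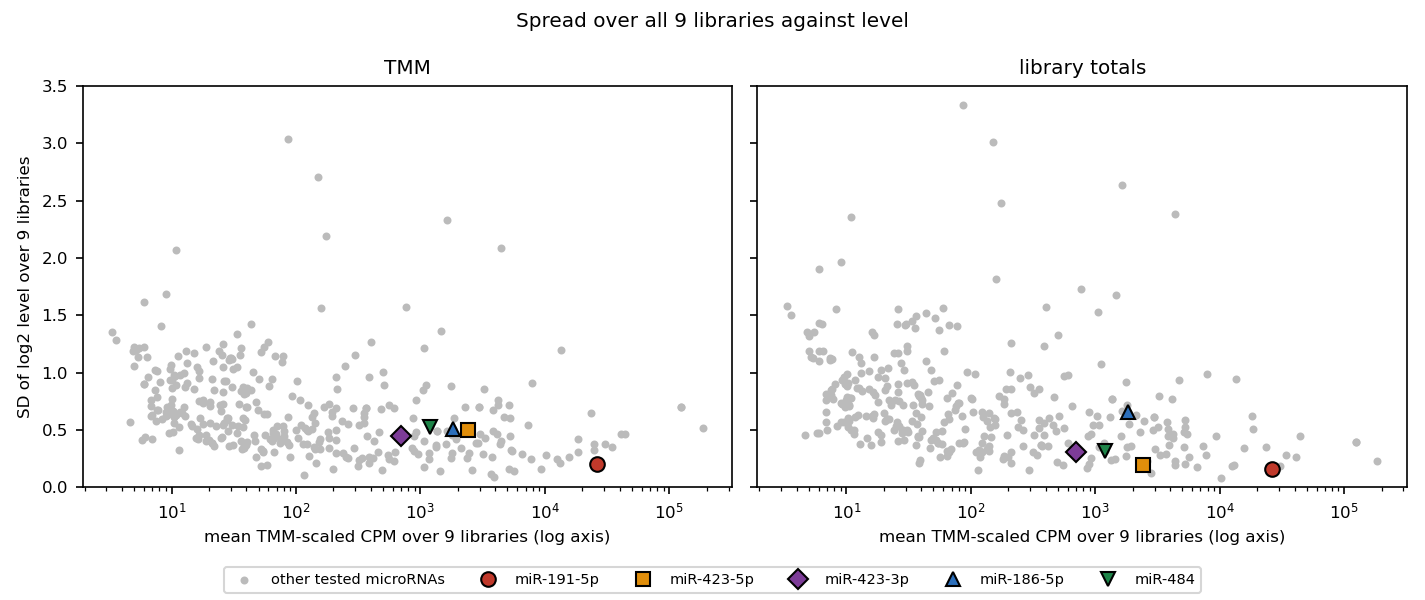
SD of the log2 level over 9 libraries against mean TMM-scaled CPM (log axis) for tested microRNAs with reads in every library, with TMM on the left and library totals on the right. Grey points are other microRNAs and coloured symbols are the 5 reference microRNAs. miR-191-5p lies near the lower edge in both panels, and miR-186-5p moves up to 0.66 on the right while miR-423-5p moves down to 0.19.

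Calls were also counted among 20 other microRNAs proposed as references, all of them tested. In HFD WT over chow WT with TMM 10 were called higher and 2 lower (37.7% of all 414 called), in HFD Sirt3 AKI over HFD WT 1 higher and 6 lower (8.94% of all), and in HFD Sirt3 AKI over chow WT 5 higher and 5 lower (39.9% of all). With library totals these counts were 1 higher and 11 lower, 2 higher and 2 lower, and 1 higher and 12 lower, in the same order of comparisons, where 39.4%, 11.4% and 41.1% of all were called. Of these 20, miR-30e-5p, miR-23a-3p and miR-24-3p had the smallest SDs over all libraries with TMM (0.12, 0.14 and 0.15). The largest were those of miR-361-5p (0.76), let-7d-3p (0.69) and miR-16-5p (0.52). miR-23a-3p, which is used beside miR-451a to gauge red-cell leakage, was however called lower on the library total in HFD WT over chow WT (log2 -0.55, adjusted p = 0.00103). Among all microRNAs averaging at least 100 CPM, miR-10b-5p had the smallest SD with TMM (0.09), at 4004 ± 333 TMM-scaled CPM in HFD Sirt3 AKI and 3748 ± 251 in HFD WT, against 4044 ± 86.7 in chow WT (SD, n = 3 each). On the library total miR-10b-5p ranked 62, so this standing also depends on the scale. The smallest SD on that scale was that of miR-103-3p, which is among the 20 (0.08, rank 1 of 168, against 0.28 with TMM).

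Ratios between members need no scale. A log2 ratio differs between groups by nearly the difference of its members' log2 fold changes. The ratios are therefore no second result, and they do not show which member moved. Of the 10 pairs of members, the groups did not overlap in 7 pairs in HFD WT over chow WT, in 6 in HFD Sirt3 AKI over HFD WT and in 9 in HFD Sirt3 AKI over chow WT. The pairs share members, so they are not separate results. Pairs of all tested microRNAs were not counted, so these counts cannot be called high or low. Of single microRNAs with TMM, 30.9% lay wholly above and 23.9% wholly below in HFD WT over chow WT. In HFD Sirt3 AKI these shares were 8.7% and 17.4% over HFD WT, and 22.9% and 26.3% over chow WT. miR-423-3p over miR-186-5p differed most. It was 0.668, 0.912 and 0.816 in HFD Sirt3 AKI and 0.472, 0.369 and 0.308 in HFD WT, against 0.173, 0.228 and 0.191 in chow WT. The groups kept that order without overlap, and the ratio was 4.04-fold higher in HFD Sirt3 AKI than in chow WT (log2 2.01, SE 0.18) and 2.10-fold higher than in HFD WT (log2 1.07, SE 0.22). In HFD WT over chow WT miR-423-5p over miR-186-5p differed most (2.53-fold, log2 1.34, SE 0.14). It was 1.97, 1.65 and 1.46 in HFD WT, against 0.627, 0.711 and 0.654 in chow WT, so miR-423-5p passed miR-186-5p on the high fat diet. The smallest differences were 0.07 for miR-191-5p over miR-484 in HFD Sirt3 AKI over HFD WT (SE 0.29) and 0.12 for miR-423-5p over miR-484 in HFD WT over chow WT (SE 0.22), where the errors are wider than the differences. All exact permutation p-values of these ratios were 0.1 or higher.

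**Figure D4:**
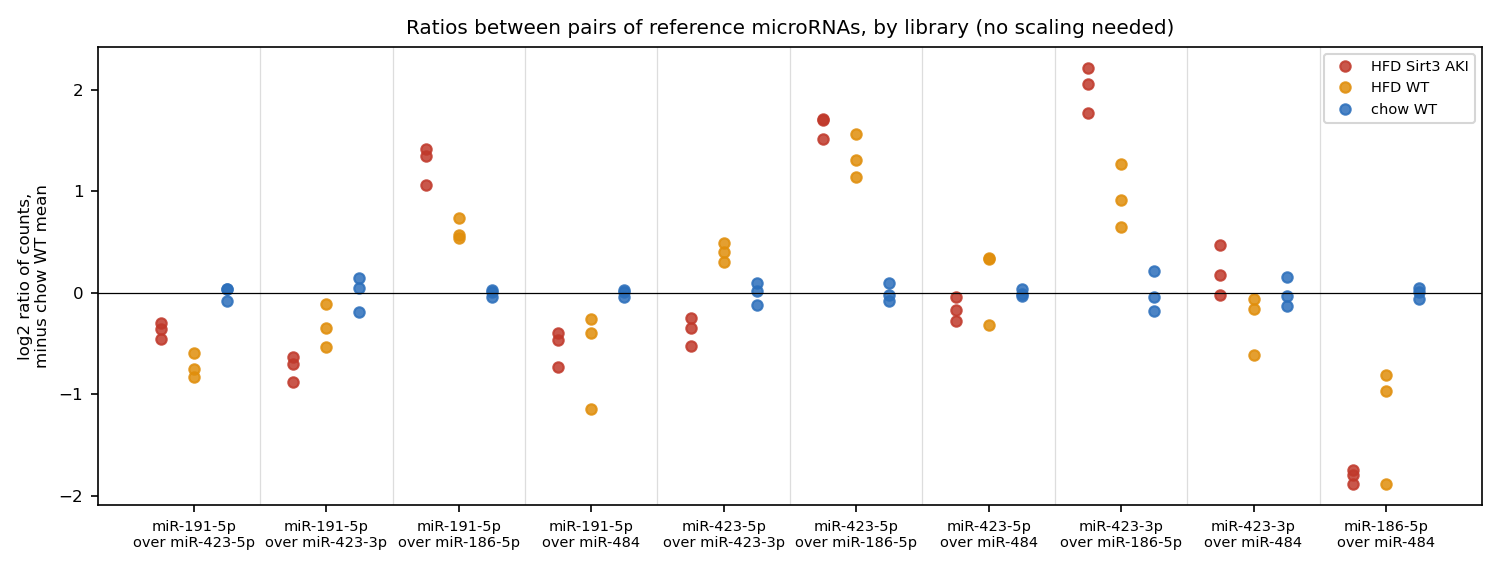
Log2 ratio of counts for the 10 pairs of reference microRNAs in every library, set relative to the chow WT mean of that pair, with HFD Sirt3 AKI in red, HFD WT in orange and chow WT in blue. Points are libraries. The chow WT libraries lie close to 0, and pairs with miR-186-5p lie furthest from it. In pairs over miR-484, HFD WT replicate 1 is the lowest point of its own group.

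The choice of reference was followed to all 414 microRNAs by scaling each library to 1 member, or to the geometric mean of the 5. In HFD WT over chow WT, scaling by miR-186-5p called 107 higher and 47 lower (37.2% of all), and scaling by miR-423-5p called 11 higher and 199 lower (50.7%). miR-191-5p gave 38 higher and 102 lower (33.8%), and miR-423-3p 19 higher and 133 lower (36.7%). miR-484 gave 3 higher and 121 lower (30%), and the 5 together 22 higher and 121 lower (34.5%). Scaling to a member moves the log2 fold changes of all microRNAs by that member's own change, so these splits follow the members' fold changes. Between HFD Sirt3 AKI and HFD WT, miR-186-5p called 198 higher and 1 lower in HFD Sirt3 AKI (48.1%), and miR-423-3p called 3 higher and 38 lower (9.9%). The 199 calls with miR-186-5p became 129, 114 and 92 without HFD WT replicates 1, 2 and 3. The 41 calls with miR-423-3p became 67 without HFD Sirt3 AKI replicate 1, 7 without HFD Sirt3 AKI replicate 3, and 13 and 10 without HFD WT replicates 2 and 3. miR-484 called 0 in this comparison by edgeR (0% of all), with 61 at an unadjusted p below 0.05, and it called 20 without HFD Sirt3 AKI replicate 1 and 27 without HFD WT replicate 1. The 5 together called 26 higher and 8 lower (8.21%). Between HFD Sirt3 AKI and chow WT, miR-186-5p called 223 higher and 23 lower in HFD Sirt3 AKI (59.4%), and miR-423-3p 16 higher and 179 lower (47.1%). The count for the 5 together in HFD Sirt3 AKI over HFD WT rests on single libraries as well. It was 0 without HFD WT replicate 2 or 3, 108 without HFD Sirt3 AKI replicate 1, 2 without HFD Sirt3 AKI replicate 3, 13 without HFD WT replicate 1, and 5, 10 and 20 without chow WT replicates 1, 2 and 3.

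**Figure D5:**
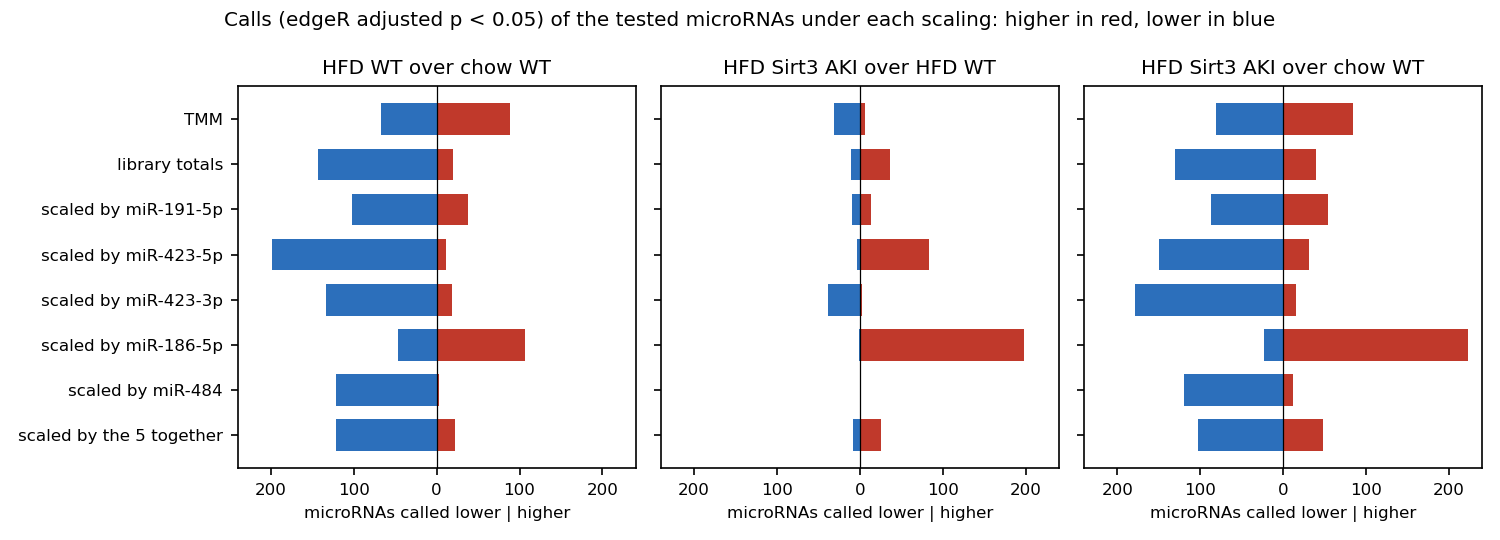
Number of the 414 tested microRNAs called higher (red, to the right) and lower (blue, to the left) at an edgeR adjusted p below 0.05 in each comparison, under TMM, library totals, scaling by each reference microRNA and by the 5 together. Scaling by miR-186-5p moves most calls to the right in the comparisons with HFD Sirt3 AKI (198 and 223 higher), and no call is left with miR-484 in HFD Sirt3 AKI over HFD WT.

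The series title names miR-30a-3p, so its values were also read against each member. Relative to miR-191-5p its log2 fold change was -1.22 in HFD WT over chow WT (adjusted p = 0.000277), and relative to miR-423-5p -1.94 (adjusted p = 1.53e-05). Relative to miR-186-5p it was -0.60 (adjusted p = 0.0139), so miR-30a-3p was called lower in HFD WT than in chow WT with each member as the scale, including miR-423-3p (-1.53) and miR-484 (-1.76). The call relative to miR-186-5p was lost without HFD WT replicate 2 (adjusted p = 0.0509). For HFD Sirt3 AKI over HFD WT the value lay between -0.81 relative to miR-423-3p (adjusted p = 0.0219) and 0.28 relative to miR-186-5p (adjusted p = 0.138). It was -0.38 relative to miR-191-5p (adjusted p = 0.144), -0.03 relative to miR-423-5p (adjusted p = 0.894), -0.36 relative to miR-484 (adjusted p = 0.593) and -0.25 relative to the 5 together (adjusted p = 0.344). Only miR-423-3p gave a call among these 6 scales, and that call was lost on leaving out HFD Sirt3 AKI replicate 3 (adjusted p = 0.107). It was also lost without replicate 2 or 3 of HFD WT, with adjusted p-values of 0.0786 and 0.0990. For the same comparison of miR-30a-3p, TMM gave -0.58 (adjusted p = 0.0151) and library totals -0.27 (adjusted p = 0.165). Against chow WT, HFD Sirt3 AKI was called lower in miR-30a-3p with every scale by a member except miR-186-5p, which gave -0.32 (adjusted p = 0.103).

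The microRNAs whose log2 levels ran most like each member over the 9 libraries were named by Pearson's r on TMM-scaled values, among 165 others averaging at least 100 CPM. These r values describe 9 libraries in 3 groups that share scaling factors and batch. For miR-191-5p they were miR-106b-3p (r = 0.95) and miR-423-5p (0.91), and for miR-423-3p miR-128-3p (0.97) and miR-328-3p (0.95). miR-423-5p ran most like miR-486a-3p and miR-486b-3p (0.96), which have identical counts, and miR-484 like miR-744-5p (0.91) and miR-425-5p (0.90). For miR-186-5p they were miR-185-5p (0.97) and miR-144-5p (0.96). Between members, miR-186-5p ran opposite to miR-423-3p (-0.76). Across the 347 tested microRNAs with a sequence, GC content and log2 fold change had a Spearman rho of 0.16 in HFD WT over chow WT, 0.03 in HFD Sirt3 AKI over HFD WT and 0.13 in HFD Sirt3 AKI over chow WT, and a Pearson r of 0.01, -0.01 and 0.01. Among the 142 of them that averaged at least 100 CPM, as all members did, Pearson's r was -0.07, 0.13 and -0.01. With TMM, the median log2 fold change in HFD WT over chow WT was 0.42 in the 94 microRNAs with at least 55% GC. In the 119 under 45% GC it was -0.01. These medians were -0.07 and -0.06 in HFD Sirt3 AKI over HFD WT, and 0.22 and -0.12 in HFD Sirt3 AKI over chow WT. These are descriptions across microRNAs, which are not independent replicates, and the part of GC content in the members' changes was not tested.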

How the data were processed

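Serum vesicles were pelleted after incubation with a commercial isolation reagent and sequenced by Illumina protocols, per the labels. Bowtie 0.12.2 and build mm8 are named in the submitters' processing notes, with no role. The counting step is not given in the sources used here. The authors deposited whole-number counts per microRNA for 1064 known and 105 predicted microRNAs, which were the basis of all results. The deposited TPM values equal counts per 1000000 of the library total (largest difference 5.00e-05), carry no length term and served as an alternative, as log2(TPM + 1). Sequences and positions are on GRCm38.p6, with genes from GENCODE, and not on mm8.

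Counts were filtered (edgeR 4.0.16 in R 4.3.3, filterByExpr, minimum count 10; 406 known and 8 predicted kept), scaled by TMM and tested with the quasi-likelihood method, using all 9 libraries and a mean for each group. Adjusted p-values are Benjamini-Hochberg over all 414. Alternatives were library totals, other scale factors, no filter, DESeq2 1.42.0, limma 3.58.1, batch terms, a replicate block, fits of the groups compared, and each library left out. The edgeR step was tested on simulated data. Same-numbered libraries correlated by -0.06 to 0.17 after removal of group means. Differently numbered libraries were not compared, so these values cannot decide whether the numbers pair libraries, and the labels do not say so. The members, the lists of other references and of markers, and the rules for naming microRNAs were chosen with earlier results of these data known. Others named are those closest to a member, and those with the smallest or largest SD.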

Additional observations from a re-analysis of the deposited data

How the results depend on the processing

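Of the 315 alternative values of the members' fold changes, 256 kept their direction and their side of the threshold, 37 lost a call, 8 gained a call and 14 changed sign. Of the sign changes, miR-191-5p gave -0.34 with library totals, -0.14 with totals without miR-486a-5p and miR-486b-5p, and -0.34 with limma on TPM in HFD WT over chow WT. It gave 0.12, 0.14 and 0.12 in HFD Sirt3 AKI over HFD WT, and -0.22 with totals and -0.22 with limma in HFD Sirt3 AKI over chow WT. miR-423-3p gave -7.4e-04 with totals and -0.011 with limma in HFD WT over chow WT. miR-484 gave 0.0018 with totals without miR-486, 0.0028 in the larger batch, 0.045 with limma and -0.44 to 0.026 with a library left out (the highest without HFD WT replicate 1), all in HFD Sirt3 AKI over HFD WT.

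The number of members called is given with the share of all tested microRNAs called in parentheses. In HFD WT over chow WT it was 2 in place of 4 with totals without miR-486 (37.4%). It was 3 with totals (39.4%), DESeq2 size factors (35.7%), DESeq2 (34.5%) and limma (42.8%). It was 5 with only the groups compared (53.4%), and 3 to 4 with a library left out (26.4 to 43.9%). For HFD Sirt3 AKI over HFD WT it was 1 in place of 2 with totals (11.4%), totals without miR-486 (12.1%) and DESeq2 size factors (5.80%). It was also 1 with no filter (4.70%) and with limma (9.66%). With a batch term it was 0 (0.242%), as with only the groups compared (0.806%). Hardly any microRNA was called in these fits, so 0 says little about the members. With a library left out it was 1 to 2 (2.97 to 23.1%). For HFD Sirt3 AKI over chow WT it was 2 in place of 4 with totals (41.1%) and limma (44.4%), and 3 with totals without miR-486 (40.1%). It was 5 with upper quartiles (40.6%) and no filter (14.6%), and 3 to 5 with a library left out (30.3 to 41.6%). Over all groups it was 3 in place of 5 with totals without miR-486 (46.9%). It was 4 with totals (47.8%), DESeq2 size factors (43.2%), DESeq2 (47.1%), limma (48.3%) and a batch term (37.4%). It was also 4 without any single library of chow WT or HFD WT (33.9 to 37.4%). Without any single HFD Sirt3 AKI library it stayed at 5 (36.4 to 50.6%). With the replicate block the members called were 4 (37.2%), 2 (7.49%) and 4 (38.9%) in the 3 comparisons and 4 (43.0%) over all groups. The block changed no call of a fold change. With the 5 together as the scale, 34 microRNAs were called in HFD Sirt3 AKI over HFD WT, against 87 with miR-423-5p, 199 with miR-186-5p, 0 with miR-484 and 0 to 108 with a library left out, a set of alternatives chosen after seeing the data. For HFD Sirt3 AKI over chow WT 246 were called with miR-186-5p, against 150. The cause of these changes was not tested. The chow WT depth limits rare arms most.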
